A study of Homo sapiens with 12 samples.

Results

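The genes described here are NRF2, its repressor KEAP1 and the antioxidant and detoxifying genes that NRF2 is known to switch on. Enzymes of the pentose phosphate pathway, of NADPH supply and of peroxide removal are included too. All were chosen by gene symbol from a list of 36, of which 35 were matched to a row among the 45478 gene rows of the count table. The row of SOD2 could not be paired with a symbol, and SOD2 was not analysed here. All 35 passed the filter on low counts that left 19929 genes for testing, although GPX2 passed through the A498 libraries alone.

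NRF2, encoded by NFE2L2, is a transcription factor that KEAP1 holds in the cytoplasm and passes to a ubiquitin ligase for destruction. Electrophiles and oxidants modify KEAP1, NRF2 then accumulates, pairs with small MAF proteins and binds antioxidant response elements next to genes of glutathione synthesis, the thioredoxin system, quinone and carbonyl reduction, haem breakdown and NADPH supply. In kidney cancer the pathway can also be switched on by mutations or by the protein SQSTM1, which binds KEAP1.

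mRNA was sequenced from 4 groups of cultured human clear cell renal cell carcinoma (ccRCC) cells, with 3 replicate libraries in each group. The parental groups were the established cell lines 786-O and A498. The sunitinib-resistant groups, here called resistant 786-O and A498-Su, were, per the study, grown from them under sunitinib, an inhibitor of receptor tyrosine kinases, at 4 µM for resistant 786-O and 2 µM for A498-Su over 4 months or more than 20 passages. All 4 groups are labelled as receiving no treatment. Each resistant line is a single selected culture, and the sources used here do not say whether replicate libraries came from separate cultures, so that p-values measure only the spread between these libraries, which may be technical. The labels give 1 batch per group, so batch and group cannot be told apart and no value within a batch can be had.

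Total counts per library ranged from 20042519 to 47972092. The libraries labelled A498-Su resembled 786-O rather than A498. Of 62 genes at 10 CPM or more in A498 (CPM, the usual count scale that divides by the effective library size) and 3 counts or fewer in each 786-O library, the A498-Su libraries held a median of 0.362% of the A498 level, whereas 33 genes with the opposite pattern had a median of 94.6% of 786-O. None of the 35 genes was among them. HIF1A had 10747, 6718 and 7945 counts in A498 and 238, 176 and 232 in A498-Su, against 421, 432 and 452 in 786-O. Every comparison of A498-Su with A498 below rests on libraries whose label these values go against, and the same libraries are also compared with 786-O. Replicate 2 of resistant 786-O stood apart, with an SD of 0.26 over 8442 genes for its log2 deviation from replicates 1 and 3, against 0.11 for the difference of those replicates. Of 9 markers of kidney carcinoma cells, 8 or 9 were detected in each group, with summed levels of 4663 to 9434 CPM, while markers of T cells summed to at most 1.00 CPM, of endothelial cells to 2.72 CPM and of myeloid cells to 4.84 CPM. Fibroblast markers summed to 50.9 to 62.4 CPM in A498 and 6.73 to 26.6 CPM elsewhere. Their part in the results was not tested. Because these are bulk samples, fewer cells expressing a gene and less RNA per cell cannot be told apart.

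Promoter sequences from RefSeq (GRCh38.p14), each reaching from 250 bases before to 50 bases after a gene start, were matched by symbol to 27 of the 35 genes. They were searched on both strands for TGACNNNGC, the core letters of the antioxidant response element, which were found in promoters of 8 genes (CBR1, EPHX1, GCLM, GPX2, KEAP1, ME1, PGD and TXNRD1). By entry, 9 of 38 promoters held it (23.7%), against 13.3% of all 35116 promoters. The following 6 stretches are shown as the examples among target and NADPH genes, 1 for each of the 8 genes other than the regulator KEAP1 and GPX2 with its low counts. Each is written 5′ to 3′ on the strand of its gene, with the motif in capitals, which reads GCNNNGTCA where it lies on the opposite strand.
GCLM, chr1:93909440-93909480, minus strand: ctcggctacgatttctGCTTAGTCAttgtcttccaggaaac
ME1, chr6:83431164-83431204, minus strand: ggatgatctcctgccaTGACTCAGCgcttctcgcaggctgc
TXNRD1, chr12:104215664-104215704, plus strand: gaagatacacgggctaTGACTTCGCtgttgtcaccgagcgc
EPHX1, chr1:225825260-225825300, plus strand: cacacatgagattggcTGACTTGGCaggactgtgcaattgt
CBR1, chr21:36069849-36069889, plus strand: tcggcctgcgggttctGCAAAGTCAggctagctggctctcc
PGD, chr1:10398847-10398887, plus strand: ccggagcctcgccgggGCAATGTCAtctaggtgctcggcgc
Counted to the start that the RefSeq entry gives, the motif began 34 bases before for GCLM, 137 for ME1, 99 for TXNRD1, 78 for EPHX1, 159 for CBR1 and 201 for PGD. The entries of EPHX1 and PGD belong to a start inside the gene as GENCODE draws it, and the motif began 15152 and 271 bases after the GENCODE start of these genes. For GCLM, ME1, TXNRD1 and CBR1 it began 8, 137, 99 and 76 bases before the GENCODE start. A match describes the letters in this window and is not evidence of binding. No motif was found in the promoter entries of the other 19 matched genes, whose elements may lie elsewhere.

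The parental lines differed in most of these genes. Most were at their highest in A498, where all 3 libraries lay above the other 9 libraries for 29 of the 34 genes other than GPX2, against 23.8% of all genes tested. GPX2, with few counts and tested only through its A498 libraries, showed this order too and is given apart below. Comparing 786-O with A498, 30 genes were lower in 786-O, 3 were higher and 2 did not pass the test, in a comparison in which 74.2% of all genes were called and 36.1% were called lower. The median log2 fold change of 786-O over A498 was -1.29 for the 35 genes and 0.038 for all genes tested. More than 2-fold lower were 21 of the 35 genes and 19.8% of all genes. Without GPX2, 29 of 34 genes were lower and 20 more than 2-fold lower, with a median of -1.20. GSS, PRDX1 and SOD1 had their highest mean in 786-O, and GPX1 and GPX4 had theirs in resistant 786-O. The libraries of 786-O and A498 did not overlap for any of the 35 genes, nor for 80.2% of all genes.

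**Figure D1:**
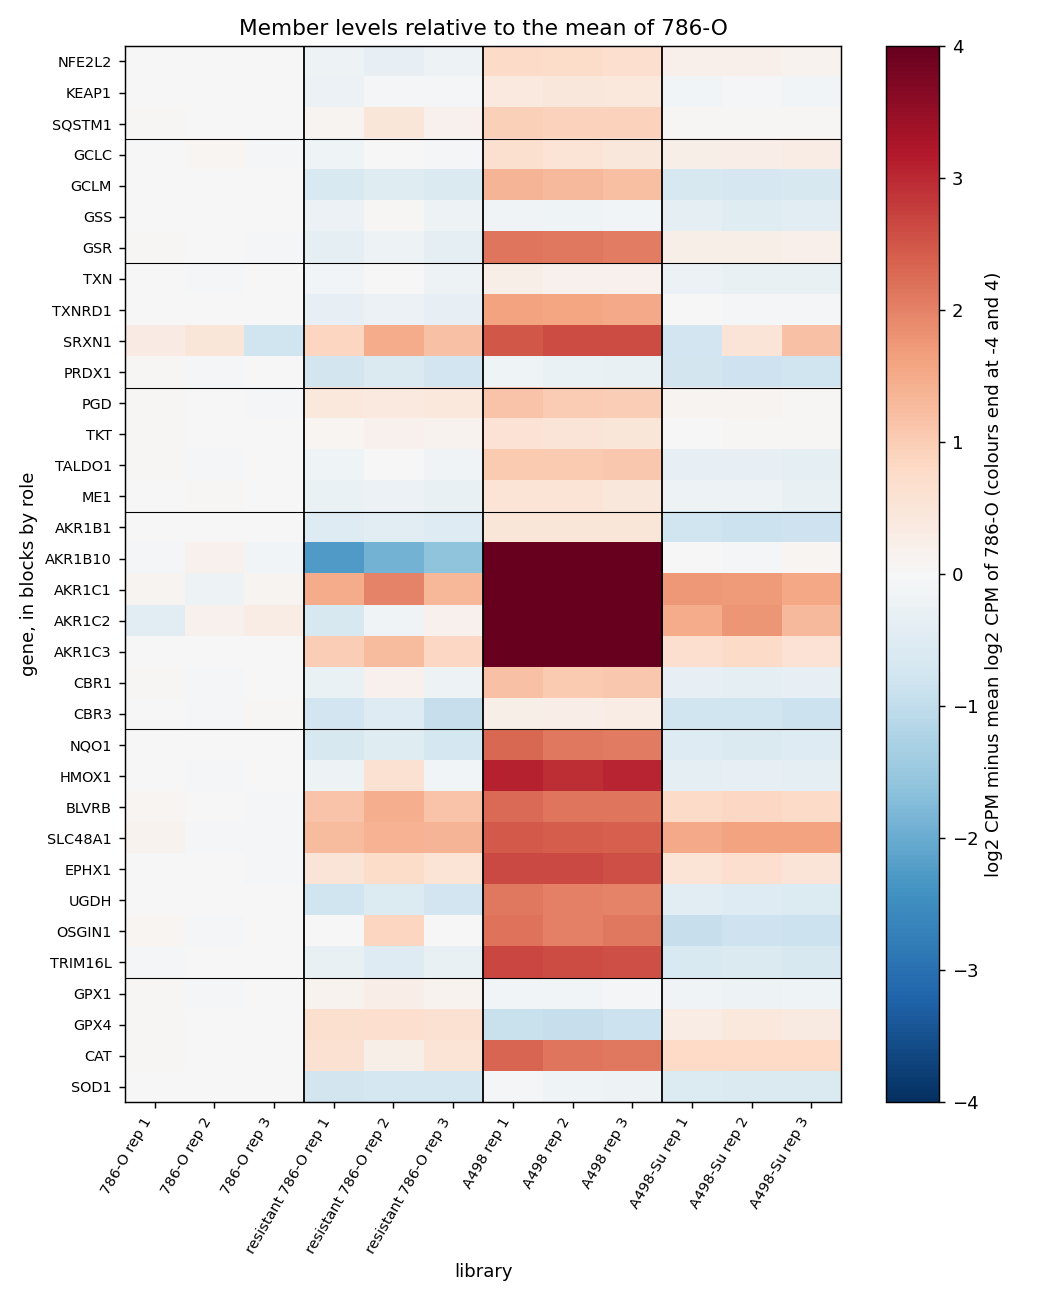
Heat map of the log2 CPM of 34 genes (rows, in blocks by role) in the 12 libraries (columns), each minus the mean log2 CPM of the 3 libraries of 786-O. GPX2 is left out because of its low counts. The 3 columns of A498 are red in most rows, and the 4 darkest rows there are AKR1B10, AKR1C1, AKR1C2 and AKR1C3, whose values lie beyond the end of the colour scale at 4, while GPX4 is blue in A498 and red in both resistant groups.

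The regulators differed by less than 2-fold. NFE2L2, which encodes NRF2 (chromosome 2, 177218667 to 177392756 of GRCh38), was at 208, 201 and 193 CPM in the 3 A498 libraries and 123, 121 and 121 CPM in those of 786-O (log2 fold change -0.72, SE 0.046, adjusted p = 1.3e-09, from edgeR's quasi-likelihood fit, with SE for standard error and Benjamini-Hochberg adjustment over all genes). KEAP1, its repressor, was at 143, 149.5 and 146 CPM in A498 and 110.4, 108 and 108 CPM in 786-O (log2 fold change -0.43, SE 0.049, adjusted p = 1.1e-06). SQSTM1, the autophagy receptor that binds KEAP1, was at 1751, 1725 and 1712 CPM in A498 and 921, 890.3 and 893 CPM in 786-O (log2 fold change -0.94, SE 0.071, adjusted p = 1.1e-08). All 3 were lower in 786-O (36.1% of all genes were), and no library of one line reached the range of the other (80.2% of all genes did not overlap). Part of the exon length of NFE2L2 (23.4%) and of SQSTM1 (21.0%) is overlapped by genes on the opposite strand, HNRNPA3 and MRNIP, and HNRNPA3 was counted at 175% to 404% of NFE2L2 and MRNIP at 48.1% to 55.3% of SQSTM1, over the 12 libraries. How far the counting kept these strands apart was not tested.

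Quinone, haem and conjugation genes, which hold the usual NRF2 readouts, were all more than 2-fold lower in 786-O, 8 of 8, against 19.8% of all genes. NQO1 (chromosome 16, 69706996 to 69726668), the quinone reductase most often measured as an NRF2 target, was at 1249, 1102 and 1086 CPM in A498 and 253, 258 and 256 CPM in 786-O, a ratio of 0.223 (log2 fold change -2.16, SE 0.065, adjusted p = 2.2e-13). HMOX1 (chromosome 22, 35380361 to 35394214), which opens the haem ring, was at 569.9, 525 and 554 CPM in A498 and 68.5, 65.1 and 68.7 CPM in 786-O (log2 fold change -3.03, SE 0.15, adjusted p = 9.2e-11). BLVRB, a biliverdin reductase, was also lower in 786-O, at 48.97, 46.1 and 45.1 CPM against 226, 207 and 204 CPM (log2 fold change -2.19, SE 0.075, adjusted p = 9.6e-13). SLC48A1 (chromosome 12, 47753916 to 47782751), a haem transporter of lysosomes, was at 67.7, 67.2 and 65.5 CPM in A498 and 13.6, 12.2 and 11.7 CPM in 786-O (log2 fold change -2.42, SE 0.063, adjusted p = 4.8e-14). The log2 fold changes of these 3 haem genes and of NQO1 spanned -3.03 to -2.16.

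The other 4 genes of this group followed the same order. EPHX1, an epoxide hydrolase, was at 435, 429.6 and 412 CPM in A498 and 70.96, 69.8 and 67.7 CPM in 786-O (log2 fold change -2.62, SE 0.061, adjusted p = 1.4e-14). UGDH, which makes the UDP-glucuronate used in conjugation, was at 372, 354 and 345 CPM in A498 and 86.9, 85.6 and 88.4 CPM in 786-O (log2 fold change -2.04, SE 0.062, adjusted p = 2.6e-13). OSGIN1, a growth inhibitor induced by oxidative stress, was at 78.8, 71.5 and 75.2 CPM in A498 and 18.5, 16.7 and 17.5 CPM in 786-O (log2 fold change -2.10, SE 0.16, adjusted p = 1.6e-08). TRIM16L, annotated as a transcribed pseudogene, was at 399.5, 386 and 376 CPM in A498 and 61.3, 64.1 and 64.1 CPM in 786-O (log2 fold change -2.62, SE 0.059, adjusted p = 7.8e-15). Reads that also fit its relative TRIM16 may have been dropped or misplaced.

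**Figure D2:**
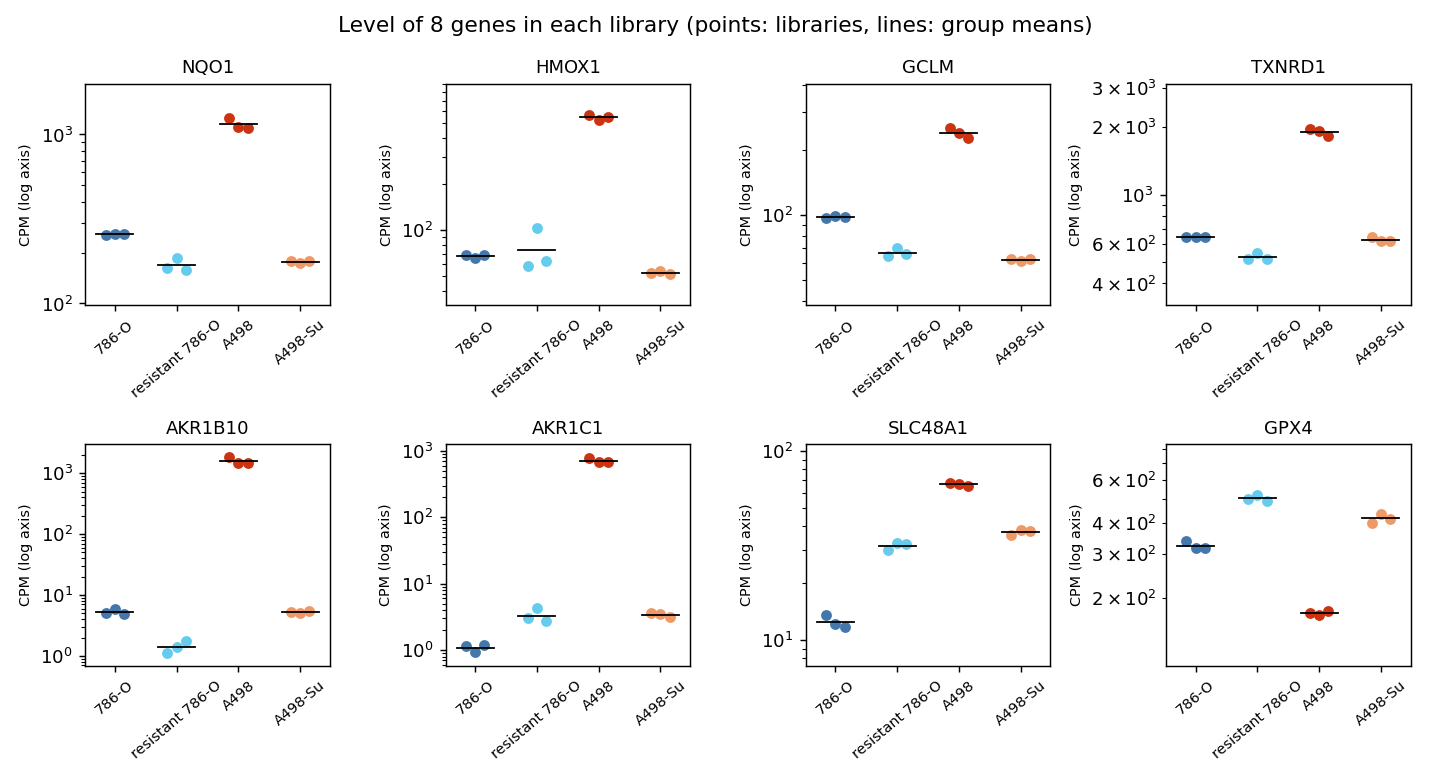
Level of 8 genes in CPM on a log axis, with 1 point per library, the 4 groups along the horizontal axis and a line at each group mean. NQO1, HMOX1, GCLM, TXNRD1, AKR1B10, AKR1C1 and SLC48A1 have their 3 highest points in A498, while GPX4 has its 3 lowest there, at 170.4 to 177.7 CPM.

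The aldo-keto reductases held the 4 largest differences among the 35 genes. These NADPH-dependent enzymes reduce aldehydes, ketones and steroids. AKR1B10 (chromosome 7, 134527567 to 134541412) was at 1861, 1492 and 1470.0 CPM in A498 and 5.00, 5.95 and 4.86 CPM in 786-O (log2 fold change -8.26, SE 0.13, adjusted p = 1.6e-16). AKR1C1 (chromosome 10, 4963253 to 4983283) was at 779.6, 673 and 686 CPM in A498 and 1.16, 0.931 and 1.18 CPM in 786-O (log2 fold change -9.35, SE 0.14, adjusted p = 1e-16). For AKR1C2 the counts in 786-O were only 7, 11 and 14, against 12194, 6136 and 7382 in A498 (log2 fold change -10.15, SE 0.15, adjusted p = 1.5e-16). AKR1C3, its neighbour on chromosome 10, was at 524, 470.4 and 450.4 CPM in A498 and 5.55, 5.54 and 5.52 CPM in 786-O (log2 fold change -6.44, SE 0.11, adjusted p = 3.3e-16). The 3 AKR1C genes are similar in sequence, and reads that fit more than 1 of them may have been dropped or misplaced. The size of each difference is therefore uncertain. By contrast, AKR1B1, the aldose reductase, was abundant in both lines, at 3363, 3395 and 3369 CPM in A498 and 2421, 2379 and 2436 CPM in 786-O (log2 fold change -0.48, SE 0.038, adjusted p = 1.5e-08). The carbonyl reductases CBR1 and CBR3 had log2 fold changes of -1.10 with an SE of 0.083 (adjusted p = 9.7e-09) and -0.26 with an SE of 0.083 (adjusted p = 0.0096). CBR3-AS1 overlaps 71.1% of the exon length of CBR3 on the other strand and was counted at 80.3% to 110% of it.

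**Figure D3:**
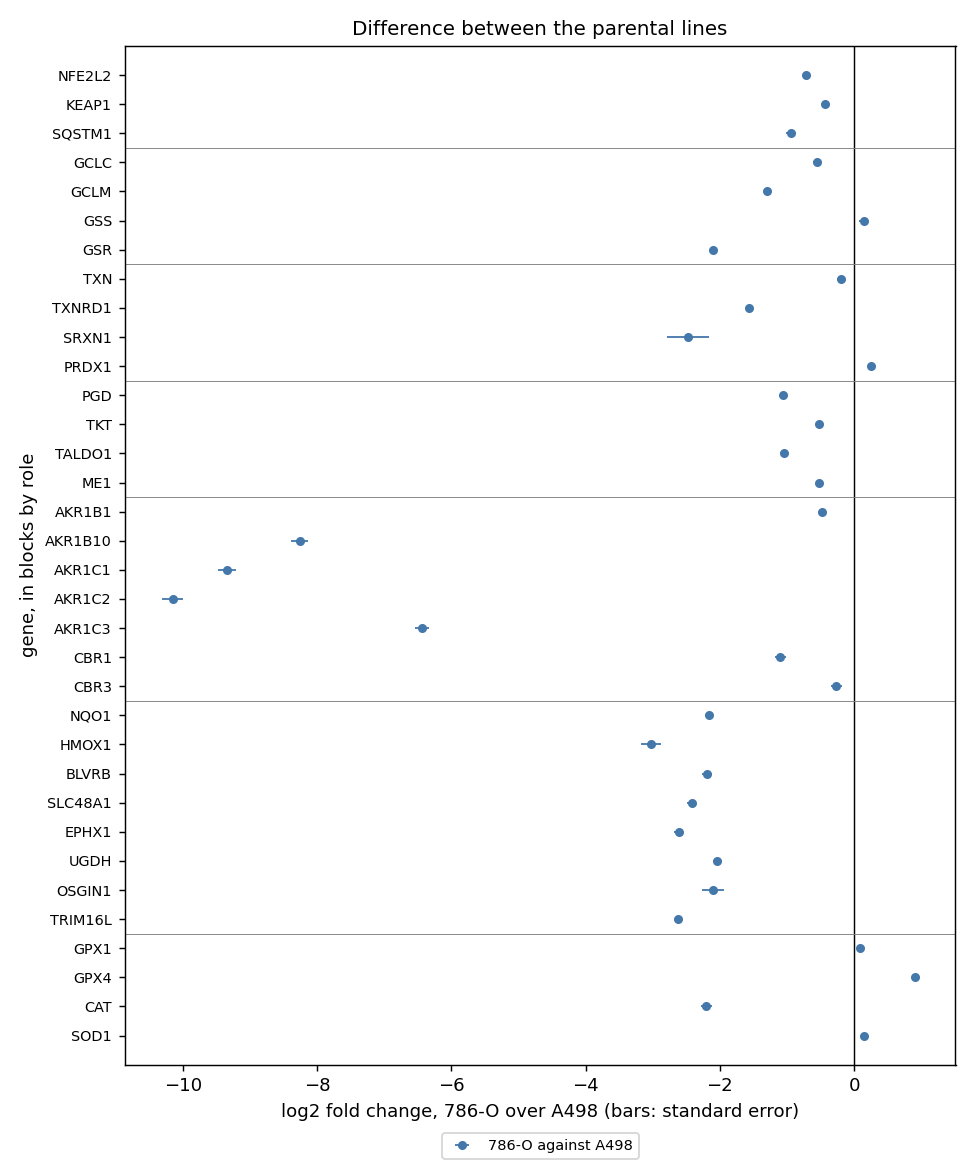
Log2 fold change of 786-O over A498 for 34 genes (vertical axis, in blocks by role), with bars for the standard error derived from the fit and a line at 0. AKR1C2, AKR1C1, AKR1B10 and AKR1C3 lie between -10.15 and -6.44, the other genes left of 0 between -3.03 and -0.20, and only GSS, PRDX1, GPX1, GPX4 and SOD1 lie to the right of 0.

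In glutathione synthesis and the thioredoxin system, some enzymes differed strongly and others hardly. GCLM, the modifier subunit of the rate-limiting ligase of glutathione synthesis, was at 253, 238 and 226 CPM in A498 and 96.1, 99.04 and 97.6 CPM in 786-O (log2 fold change -1.29, SE 0.049, adjusted p = 3.3e-12). GCLC, its catalytic subunit, had a smaller log2 fold change of -0.55 with an SE of 0.066 (adjusted p = 1.8e-06). GSS, which adds the last residue of glutathione, was at 115, 115 and 118 CPM in A498 and 130.2, 127 and 127 CPM in 786-O and did not pass the test (log2 fold change 0.14, SE 0.064, adjusted p = 0.059). GSR, which returns oxidized glutathione to its reduced form with NADPH, was at 310.4, 301 and 293 CPM in A498 and 72.5, 71.4 and 67.7 CPM in 786-O (log2 fold change -2.10, SE 0.053, adjusted p = 3e-14). The reductase of the thioredoxin system, TXNRD1, was at 1960.0, 1929 and 1830.0 CPM in A498 and 645, 643 and 648 CPM in 786-O (log2 fold change -1.56, SE 0.044, adjusted p = 9.7e-14). Thioredoxin itself, TXN, differed little, with a log2 fold change of -0.20 with an SE of 0.051 (adjusted p = 0.0028). Both reductases, which draw on NADPH, thus lay lower in 786-O by more than 2-fold, while GSS and TXN did not. PRDX1, a peroxiredoxin that thioredoxin regenerates, was higher in 786-O, with 1189, 1124 and 1151 CPM against 1017, 954 and 937 CPM (log2 fold change 0.25, SE 0.052, adjusted p = 0.00045). MMACHC overlaps 29.8% of the exon length of PRDX1 on the opposite strand and was counted at 38.6% to 44.6% of PRDX1 over the libraries. SRXN1, which repairs oxidized peroxiredoxins, had only 33, 38 and 18 counts in 786-O and 134, 91 and 116 in A498 (log2 fold change -2.48, SE 0.32, adjusted p = 4.2e-06), and another annotated gene shares 90.7% of its exon length.

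The 4 genes listed as pentose phosphate and NADPH enzymes were all lower in 786-O, where 36.1% of all genes were called lower. The wider list went the other way, with 10 of 13 genes higher in 786-O and 3 lower, as given below. PGD, which yields NADPH in the oxidative pentose phosphate pathway, was at 509.5, 468 and 461 CPM in A498 and 237, 233 and 222 CPM in 786-O (log2 fold change -1.06, SE 0.047, adjusted p = 1.8e-11). TALDO1, a transaldolase of the non-oxidative branch, had a similar log2 fold change of -1.05 with an SE of 0.052 (adjusted p = 6.7e-11). TKT, the transketolase, and ME1, the cytosolic malic enzyme, had log2 fold changes of -0.53 with an SE of 0.044 (adjusted p = 2.9e-08) and -0.52 with an SE of 0.048 (adjusted p = 1.2e-07). PGD and TALDO1 therefore differed by slightly more than 2-fold, TKT and ME1 by less.

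Among the enzymes that remove peroxides and superoxide, the direction was mixed. CAT, the catalase, was at 124, 109 and 106 CPM in A498 and 25.2, 24.1 and 24.4 CPM in 786-O (log2 fold change -2.20, SE 0.082, adjusted p = 2.6e-12). GPX4, the peroxidase that reduces lipid hydroperoxides and protects against ferroptosis, was at 173, 170.4 and 178 CPM in A498 and 338, 318 and 318 CPM in 786-O, so that it was higher in 786-O (log2 fold change 0.90, SE 0.046, adjusted p = 9e-11). GPX4 was the only 1 of the 35 genes with its lowest mean in A498. SOD1, the cytosolic superoxide dismutase, differed slightly (log2 fold change 0.15, SE 0.042, adjusted p = 0.005), a call lost under library-size scaling (adjusted p = 0.15), and GPX1 did not pass the test (log2 fold change 0.092, SE 0.044, adjusted p = 0.071). GPX2 had 11, 7 and 8 counts in A498, 3, 2 and 1 in 786-O, 4, 4 and 4 in resistant 786-O and 0, 0 and 2 in A498-Su, which is at or near the 3 counts taken as the floor in all but A498, and no fold change is given for it.

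In resistant 786-O the changes went in both directions, as they did over all genes. Against 786-O, 12 of the 35 genes rose, 14 fell and 9 did not pass the test. In this comparison 68.5% of all genes were called, 35.0% higher and 33.5% lower. The median log2 fold change was -0.095 for the 35 genes and 0.033 for all genes. AKR1C1, SLC48A1, BLVRB, SRXN1 and AKR1C3 rose by more than 2-fold (16.2% of all genes did), and AKR1B10 fell by more than 2-fold (5.76% of all genes did). With library-size scaling in place of TMM, the split was 13 higher and 12 lower, and that of all genes moved from 6970 higher and 6673 lower to 8550 and 5136. The libraries did not overlap for 27 of the 35 genes and for 68.9% of all genes.

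Of the haem genes, SLC48A1 and BLVRB rose. SLC48A1 was at 29.8, 32.6 and 32.2 CPM in resistant 786-O, above all 3 libraries of 786-O, a 2.53-fold rise (log2 fold change 1.34, SE 0.063, adjusted p = 1.2e-10). BLVRB was at 103, 127 and 103 CPM in resistant 786-O, again without overlap (log2 fold change 1.25, SE 0.073, adjusted p = 1.4e-09). HMOX1 was at 58.05, 102 and 62.5 CPM, so that replicate 2 lay above and replicates 1 and 3 below the range of 786-O, and it did not pass the test (log2 fold change 0.14, SE 0.15, adjusted p = 0.41). Without replicate 2 of resistant 786-O, its log2 fold change was -0.16 (adjusted p = 0.0015). OSGIN1 was also highest in replicate 2, at 17.7, 31.9 and 17.7 CPM with replicates 1 and 3 inside the range of 786-O (log2 fold change 0.35, SE 0.17, adjusted p = 0.072), with a log2 fold change of 0.011 (adjusted p = 0.88) when that replicate was left out.

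NQO1 fell to 163, 185 and 157 CPM in resistant 786-O, with every library below 786-O (log2 fold change -0.61, SE 0.063, adjusted p = 6.7e-07). UGDH fell to 50.3, 60.1 and 50.7 CPM (log2 fold change -0.70, SE 0.062, adjusted p = 1.2e-07) and TRIM16L to 51.1, 43.9 and 50.97 CPM (log2 fold change -0.38, SE 0.057, adjusted p = 3.3e-05). EPHX1 went the other way and rose to 100.2, 116 and 102 CPM (log2 fold change 0.61, SE 0.059, adjusted p = 3.1e-07). The 8 quinone, haem and conjugation genes, which all lay on the same side between the parental lines, thus split into 3 that rose, 3 that fell and 2 that did not pass. Of all genes, 35.0% were called higher and 33.5% lower.

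The aldo-keto reductases split as well. AKR1B10 fell to 1.10, 1.42 and 1.73 CPM, a ratio of 0.269 to 786-O (log2 fold change -1.90, SE 0.16, adjusted p = 7.3e-08). AKR1C1 rose to 3.00, 4.24 and 2.71 CPM (log2 fold change 1.59, SE 0.18, adjusted p = 1.3e-06) and AKR1C3 to 10.9, 13.4 and 9.75 CPM (log2 fold change 1.03, SE 0.11, adjusted p = 5.8e-07). AKR1C1 rests on 44, 36 and 53 counts in 786-O, and AKR1B10 on 54, 62 and 79 counts in resistant 786-O. AKR1C2 stayed at 8, 10 and 13 counts, overlapping 786-O (log2 fold change -0.23, SE 0.40, adjusted p = 0.63). The levels of all 4 in resistant 786-O remained far under those of A498, where the lowest library of AKR1C1 was at 673 CPM. AKR1B1 fell to 1678, 1755 and 1692 CPM (log2 fold change -0.50, SE 0.038, adjusted p = 2.2e-08) and CBR3 to 10.3, 12.3 and 9.40 CPM (log2 fold change -0.73, SE 0.084, adjusted p = 1.9e-06), while CBR1 did not pass (log2 fold change -0.089, SE 0.083, adjusted p = 0.35).

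Of the glutathione genes, GCLM fell to 64.5, 69.9 and 65.95 CPM (log2 fold change -0.55, SE 0.049, adjusted p = 1.4e-07) and GSR to 54.2, 60.98 and 54.6 CPM (log2 fold change -0.32, SE 0.052, adjusted p = 6.9e-05). GCLC and GSS did not pass, with log2 fold changes of -0.081 with an SE of 0.065 (adjusted p = 0.28) and -0.12 with an SE of 0.064 (adjusted p = 0.11). In the thioredoxin system, PRDX1 fell to 699.8, 768 and 676 CPM (log2 fold change -0.69, SE 0.052, adjusted p = 2.1e-08) and TXNRD1 to 513, 548 and 514 CPM (log2 fold change -0.30, SE 0.043, adjusted p = 1.9e-05). SRXN1 rose on low counts of 62, 86 and 72 (log2 fold change 1.11, SE 0.33, adjusted p = 0.0084), and without replicate 3 of 786-O, its lowest library, the adjusted p was 0.053. TXN did not pass (log2 fold change -0.095, SE 0.051, adjusted p = 0.11). None of the 4 glutathione genes rose, where 35.0% of all genes did. Without replicate 2 of resistant 786-O, GCLC, GSS, TXN, CBR1 and TALDO1 were also called lower, as was HMOX1, and 32 of the 35 genes were called. Calls rose over all genes too, to 7611 higher and 7269 lower of 20228, from 6970 and 6673 of 19929.

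The pentose phosphate and NADPH enzymes changed little. PGD rose to 309, 305 and 312 CPM (log2 fold change 0.42, SE 0.046, adjusted p = 1.2e-06), and TKT rose with a log2 fold change of 0.13 with an SE of 0.043 (adjusted p = 0.017), which was lost without replicate 2 or replicate 3 of 786-O (adjusted p = 0.075 and 0.066). ME1 fell (log2 fold change -0.27, SE 0.048, adjusted p = 0.00017) and TALDO1 did not pass (log2 fold change -0.097, SE 0.051, adjusted p = 0.11). PGD and ME1, which both yield NADPH, thus went opposite ways.

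Of the 5 genes of peroxide and superoxide removal, 3 rose and 1 fell, against 35.0% and 33.5% of all genes. GPX4 rose to 503, 522 and 494 CPM, above every library of 786-O (log2 fold change 0.64, SE 0.045, adjusted p = 9.6e-09). CAT rose to 37.3, 29.2 and 35.6 CPM (log2 fold change 0.47, SE 0.081, adjusted p = 0.00011) and GPX1 to 371, 399 and 367 CPM (log2 fold change 0.18, SE 0.044, adjusted p = 0.0017). SOD1 fell to 188, 189 and 191 CPM, with every library below the lowest of 786-O at 305 CPM (log2 fold change -0.71, SE 0.043, adjusted p = 1.8e-09). CAT, GPX1 and GPX4, which remove hydrogen peroxide and lipid peroxides, thus rose, while SOD1, which makes hydrogen peroxide from superoxide, and PRDX1 fell. Their families did not move as a whole. Of other glutathione peroxidases, mean GPX3 went from 15.3 CPM in 786-O to 2.18 CPM in resistant 786-O, and GPX8 from 64.95 to 55.9 CPM. Of other peroxiredoxins, mean PRDX2 went from 240 to 316 CPM and PRDX5 from 179 to 264 CPM. Mean PRDX3 went down from 318 to 238 CPM and PRDX6 from 331 to 227 CPM, with PRDX4 at 149 and 150 CPM.

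Of the regulators, NFE2L2 fell to 106, 97.8 and 105 CPM (log2 fold change -0.24, SE 0.046, adjusted p = 0.00027) and SQSTM1 rose to 972, 1259 and 1019 CPM (log2 fold change 0.27, SE 0.071, adjusted p = 0.0039). The fitted change of SQSTM1 was 0.14 (adjusted p = 0.00083) without replicate 2, its highest library. KEAP1 was called lower (log2 fold change -0.13, SE 0.049, adjusted p = 0.027), but under library-size scaling it lay at 0.012 (adjusted p = 0.82), and with DESeq2 the adjusted p was 0.079. Leaving out replicate 1 of resistant 786-O gave KEAP1 -0.051 (adjusted p = 0.32). The call for NFE2L2 was also lost under library-size scaling (log2 fold change -0.097, adjusted p = 0.077).

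Comparing the libraries labelled A498-Su with A498, 33 of the 35 genes were lower, GPX4 was higher and GPX1 did not pass, where 72.7% of all genes were called and 36.4% were called lower. The median log2 fold change was -1.40 for the 35 genes and -0.0041 for all genes. More than 2-fold lower were 21 of the 35 and 16.5% of all genes, and with GPX4, the 1 gene more than 2-fold higher (14.3% of all genes), 22 of the 35 lay beyond 2-fold in either direction (30.8% of all genes). Without GPX2, 32 of 34 genes were lower, 20 of them by more than 2-fold. The libraries did not overlap for any of the 35 genes, nor for 78.5% of all genes. This comparison and that of 786-O with A498 share the A498 libraries. NQO1 was at 179, 172 and 178 CPM in A498-Su (log2 fold change -2.70, SE 0.067, adjusted p = 3.3e-14), HMOX1 at 52.4, 53.5 and 51.6 CPM (log2 fold change -3.39, SE 0.16, adjusted p = 4.4e-11) and AKR1B10 at 5.26, 5.07 and 5.56 CPM (log2 fold change -8.24, SE 0.13, adjusted p = 2.6e-16). Each of the 3 lay closer to its level in 786-O than to that in A498. On the log2 scale, A498-Su was nearer to 786-O than to A498 for 30 of the 35 genes (29 of 34 without GPX2), against 58.6% of all genes. GPX4 was at 403, 438 and 417 CPM, above A498 (log2 fold change 1.27, SE 0.046, adjusted p = 2.3e-12) and above 786-O.

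The change of A498-Su over A498 differed from that of resistant 786-O over 786-O for 32 of the 35 genes, 30 of them with the lower change in A498-Su (31 and 29 of 34 without GPX2). Of all genes, 68.3% were called, 34.4% with the lower change in A498-Su. The median difference was -1.39 for the 35 genes and -0.024 for all genes. GCLC, GSS and PRDX1 did not pass this test, and GPX4 and SOD1 differed in the other direction.

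Against 786-O, the libraries labelled A498-Su had 11 of the 35 genes higher, 16 lower and 8 not called. Of all genes, 63.6% were called, 31.6% higher and 32.1% lower. The median log2 fold change was -0.098 for the 35 genes (-0.041 with GPX2 held at the floor of 3 counts per library) and 0.0029 for all genes. AKR1C1, SLC48A1 and AKR1C2 were more than 2-fold higher (13.7% of all genes were), and none was more than 2-fold lower (6.30% of all genes were). The libraries did not overlap for 30 of the 35 genes and for 73.4% of all genes. Library-size scaling moved the split to 15 higher and 11 lower, and that of all genes from 6292 higher and 6391 lower to 7923 and 4743. This comparison shares the 786-O libraries with that of resistant 786-O, and the values of both are set side by side below without a test of their likeness.

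SLC48A1 was at 35.9, 38.2 and 37.6 CPM in A498-Su (log2 fold change 1.58, SE 0.064, adjusted p = 2.8e-11), against 1.34 in resistant 786-O. BLVRB was at 79.7, 82.5 and 79.6 CPM (log2 fold change 0.79, SE 0.074, adjusted p = 2.7e-07), against 1.25 in resistant 786-O. EPHX1 had 0.58 and 0.61 in the same order. The haem transporter, the biliverdin reductase and the epoxide hydrolase were thus called higher than 786-O in each. AKR1C1 was at 3.58, 3.54 and 3.17 CPM in A498-Su (log2 fold change 1.65, SE 0.19, adjusted p = 2.8e-06), against 1.59 in resistant 786-O, and AKR1C3 had 0.67 and 1.03. CAT (0.80 and 0.47) and GPX4 (0.37 and 0.64) were also called higher than 786-O in each.

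Genes of several roles were lower than 786-O. GCLM was at 62.03, 61.1 and 62.4 CPM in A498-Su (log2 fold change -0.66, SE 0.050, adjusted p = 2.6e-08), against -0.55 in resistant 786-O. NQO1 had -0.54 with an SE of 0.063 (adjusted p = 2.8e-06) in A498-Su and -0.61 in resistant 786-O. SOD1 was at 213, 207 and 209 CPM (log2 fold change -0.56, SE 0.043, adjusted p = 2.5e-08), against -0.71. PRDX1 had -0.80 and -0.69, and AKR1B1 had -0.83 and -0.50. UGDH, CBR3, TRIM16L and ME1 had -0.51, -0.82, -0.61 and -0.23 in A498-Su against -0.70, -0.73, -0.38 and -0.27 in resistant 786-O. HMOX1 was called lower in A498-Su (log2 fold change -0.36, SE 0.15, adjusted p = 0.047), a call that DESeq2 did not make (adjusted p = 0.15), and lay at 52.4, 53.5 and 51.6 CPM.

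Other genes lay on different sides of 786-O. GSR was called higher in A498-Su (log2 fold change 0.22, SE 0.052, adjusted p = 0.0016) and lower in resistant 786-O (-0.32), and so was NFE2L2, with 0.17 (adjusted p = 0.0038) and -0.24. GPX1 was called lower in A498-Su, with -0.17 (adjusted p = 0.0038), and higher in resistant 786-O, with 0.18. The call in A498-Su was lost under library-size scaling (-0.016, adjusted p = 0.75) and without A498-Su replicate 2 (-0.13). Of the 4 glutathione genes, GSR and GCLC (0.26, adjusted p = 0.0029) were thus higher in A498-Su than in 786-O, and GCLM and GSS (-0.43, adjusted p = 3.3e-05) lower. AKR1C2 was higher in A498-Su (1.45, adjusted p = 0.0023), on counts under 20.

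Further genes called lower in A498-Su than in 786-O were OSGIN1 (-0.87), TALDO1 (-0.35), CBR1 (-0.34) and TXN (-0.26), none of which passed in resistant 786-O. Library-size scaling ended the calls for CBR1 (-0.19, adjusted p = 0.055) and TXN (-0.11, adjusted p = 0.052). PGD (0.089), SQSTM1 (0.054), TKT (0.028), SRXN1 (0.42), TXNRD1 (-0.041) and KEAP1 (-0.098) did not pass in A498-Su against 786-O.

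**Figure D4:**
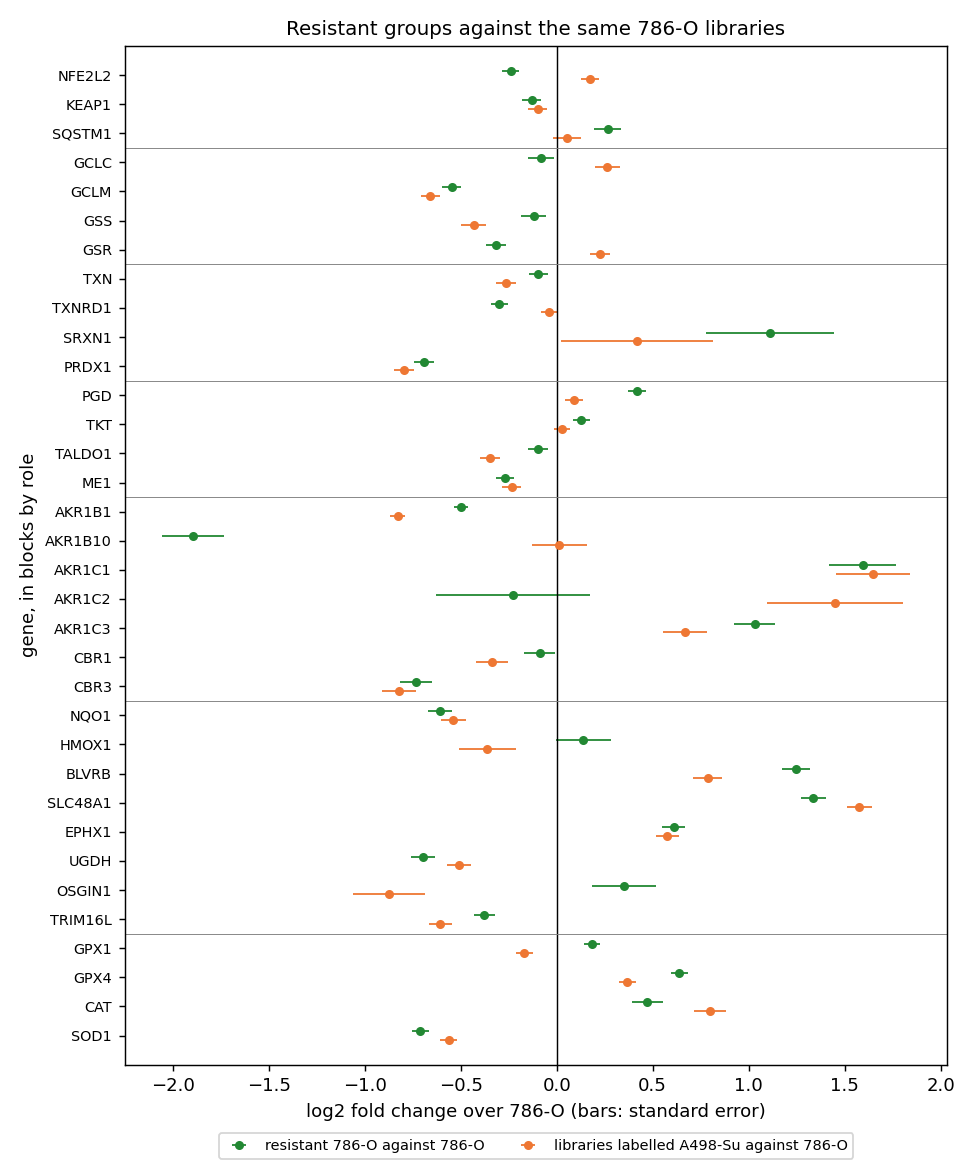
Log2 fold change over the same 786-O libraries for 34 genes (vertical axis, in blocks by role), green for resistant 786-O and orange for the libraries labelled A498-Su, with bars for the standard error and a line at 0. SLC48A1 lies at 1.34 in resistant 786-O and 1.58 in A498-Su, AKR1C1 at 1.59 and 1.65, and AKR1B10 has the widest gap, at -1.90 in resistant 786-O and 0.013 in A498-Su.

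Some genes parted between the resistant groups. Compared directly, 10 of the 35 genes were higher in A498-Su than in resistant 786-O, with 14 lower and 11 not called, where 46.1% of all genes were called, 23.0% higher and 23.0% lower. The libraries did not overlap for 26 of the 35 genes and for 51.7% of all genes. When these 2 groups alone were fitted, 18 of these genes were called. In that fit 3635 of all 18157 genes tested were called higher and 3617 lower. AKR1B10 was at 5.26, 5.07 and 5.56 CPM in A498-Su and 1.10, 1.42 and 1.73 CPM in resistant 786-O (log2 fold change 1.91, SE 0.17, adjusted p = 8.3e-07). AKR1C2 had 19, 18 and 16 counts in A498-Su and 8, 10 and 13 in resistant 786-O (log2 fold change 1.68, SE 0.36, adjusted p = 0.0014). OSGIN1 was at 9.32, 9.81 and 9.70 CPM in A498-Su, below every library of resistant 786-O (log2 fold change -1.22, SE 0.18, adjusted p = 8.5e-05). These were the 3 called genes with more than a 2-fold difference (7.30% of all genes), 2 of them higher in A498-Su (2.91% of all genes) and 1 lower (4.40% of all genes). NFE2L2, GSR and TXNRD1 were higher in A498-Su, with log2 fold changes of 0.41 with an SE of 0.046 (adjusted p = 5.3e-06), 0.54 with an SE of 0.052 (adjusted p = 1.5e-06) and 0.26 with an SE of 0.043 (adjusted p = 0.00021). GPX4 and BLVRB were lower, with -0.27 with an SE of 0.045 (adjusted p = 0.0002) and -0.46 with an SE of 0.073 (adjusted p = 0.00012).

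Other genes of the pathway were followed in 5 lists. Their counts are to be read against the shares of all genes called higher and lower, which were 38.2% and 36.1% for 786-O against A498, 36.3% and 36.4% for A498-Su against A498, 35.0% and 33.5% for resistant 786-O against 786-O, and 31.6% and 32.1% for A498-Su against 786-O. Of 16 other NRF2 targets tested, 15 were lower in 786-O than in A498, and ABCC2, an exporter of glutathione conjugates, was at 218, 206 and 201 CPM in A498 and 2.21, 2.87 and 2.88 CPM in 786-O (log2 fold change -6.29, SE 0.11, adjusted p = 6.1e-16). NR0B1, a nuclear receptor, had 1104, 706 and 907 counts in A498, 12, 3 and 11 in 786-O, 0, 2 and 1 in resistant 786-O and 1, 2 and 3 in A498-Su. It is 1 of the 16 in each count given here, but it passed the filter on low counts through the A498 libraries alone. Its place among the genes lower than A498 therefore carries no weight. In resistant 786-O, 10 of the 16 rose and 5 fell. NR0B1 is 1 of these 5, on 12 counts or fewer in each library compared, and carries no weight there either. In A498-Su against 786-O, 11 were higher and 1 was lower. The lipase ABHD4 was at 19.9, 18.7 and 19.4 CPM in 786-O, 65.2, 69.9 and 72.4 CPM in resistant 786-O (log2 fold change 1.84, SE 0.051, adjusted p = 4.8e-13) and 73.7, 76.2 and 75.9 CPM in A498-Su (log2 fold change 1.96, SE 0.052, adjusted p = 2.7e-13). ABCC3, another exporter of conjugates, rose to 169, 145 and 170.0 CPM in resistant 786-O from 54.8, 57.5 and 55.9 CPM (log2 fold change 1.53, SE 0.058, adjusted p = 1.3e-11). SLC7A11, the cystine importer that feeds glutathione synthesis, was at 282, 267 and 265 CPM in A498, 50.7, 52.5 and 53.4 CPM in 786-O, 60.6, 53.7 and 58.6 CPM in resistant 786-O and 82.8, 85.5 and 87.3 CPM in A498-Su. Of the 16, A498-Su against A498 had 15 lower and 1 higher.

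Of 15 other regulators of NRF2, 7 rose and 5 fell in resistant 786-O (68.5% of all genes were called), and 8 were higher and 3 lower in A498-Su against 786-O (63.6% of all genes were called). NFE2L1, the NRF2 relative that controls proteasome genes, rose from 306, 297 and 308 CPM in 786-O to 620.1, 665 and 666 CPM in resistant 786-O (log2 fold change 1.10, SE 0.041, adjusted p = 1e-11) and was at 573, 562 and 559.7 CPM in A498-Su (log2 fold change 0.89, SE 0.041, adjusted p = 1e-10). The small MAF partner MAFG rose to 136, 142 and 143 CPM from 80.98, 84.2 and 85.8 CPM (log2 fold change 0.75, SE 0.046, adjusted p = 2.5e-09), while MAFF fell (log2 fold change -0.71, SE 0.19, adjusted p = 0.0036). Between the parental lines, 6 of these regulators were higher and 6 lower in 786-O, and 5 were higher and 3 lower in A498-Su against A498.

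Of 26 other thioredoxin, peroxiredoxin, glutaredoxin and peroxidase genes tested, 12 were higher and 11 lower when 786-O was compared with A498. The counts were 9 and 10 for A498-Su against A498, 11 and 13 for resistant 786-O against 786-O, and 11 and 11 for A498-Su against 786-O. GPX3, the secreted glutathione peroxidase, was at 265, 259 and 262 CPM in A498, 14.97, 15.3 and 15.7 CPM in 786-O, 1.84, 2.13 and 2.58 CPM in resistant 786-O (log2 fold change -2.81, SE 0.095, adjusted p = 3.5e-12) and 2.09, 2.06 and 2.78 CPM in A498-Su (log2 fold change -2.72, SE 0.11, adjusted p = 2e-11). MSRA, which repairs oxidized methionine, rose from 3.29, 2.92 and 3.19 CPM to 8.78, 8.79 and 8.97 CPM in resistant 786-O (log2 fold change 1.495, SE 0.11, adjusted p = 1e-08). Of 12 glutathione turnover genes tested, 7 rose and 3 fell in resistant 786-O, and the same counts were higher and lower in A498-Su against 786-O. CHAC1, which degrades glutathione, was at 16.8, 13.2 and 14.9 CPM in 786-O, 32.6, 29.6 and 36.4 CPM in resistant 786-O (log2 fold change 1.13, SE 0.087, adjusted p = 2.6e-08) and 43.3, 40.7 and 44.05 CPM in A498-Su (log2 fold change 1.51, SE 0.089, adjusted p = 1.5e-09). Between the parental lines, 6 of the 12 were higher and 6 lower in 786-O, and 5 were higher and 5 lower in A498-Su against A498.

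Of 13 other pentose phosphate and NADPH genes tested, 10 were higher and 3 lower in 786-O than in A498, and against A498 the A498-Su libraries had 8 higher and 1 lower. NNT (chromosome 5, 43602692 to 43707405), the mitochondrial transhydrogenase that makes NADPH from NADH, had 4, 3 and 3 counts in A498 against 4401, 4360 and 5242 in 786-O, 9110, 5800 and 8473 in resistant 786-O and 6296, 4947 and 6004 in A498-Su. With 3 or 4 counts in each A498 library, no fold change is given, and the libraries labelled A498-Su held NNT at 235, 237 and 235 CPM. In resistant 786-O, 3 of the 13 rose and 8 fell, and in A498-Su against 786-O, 4 were higher and 7 lower. H6PD, which makes NADPH inside the endoplasmic reticulum, rose from 30.04, 31.5 and 31.5 CPM to 79.5, 73.6 and 90.5 CPM in resistant 786-O (log2 fold change 1.39, SE 0.070, adjusted p = 2.6e-10) and was at 60.05, 61.6 and 63.7 CPM in A498-Su (log2 fold change 0.99, SE 0.071, adjusted p = 1.3e-08).

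**Figure D5:**
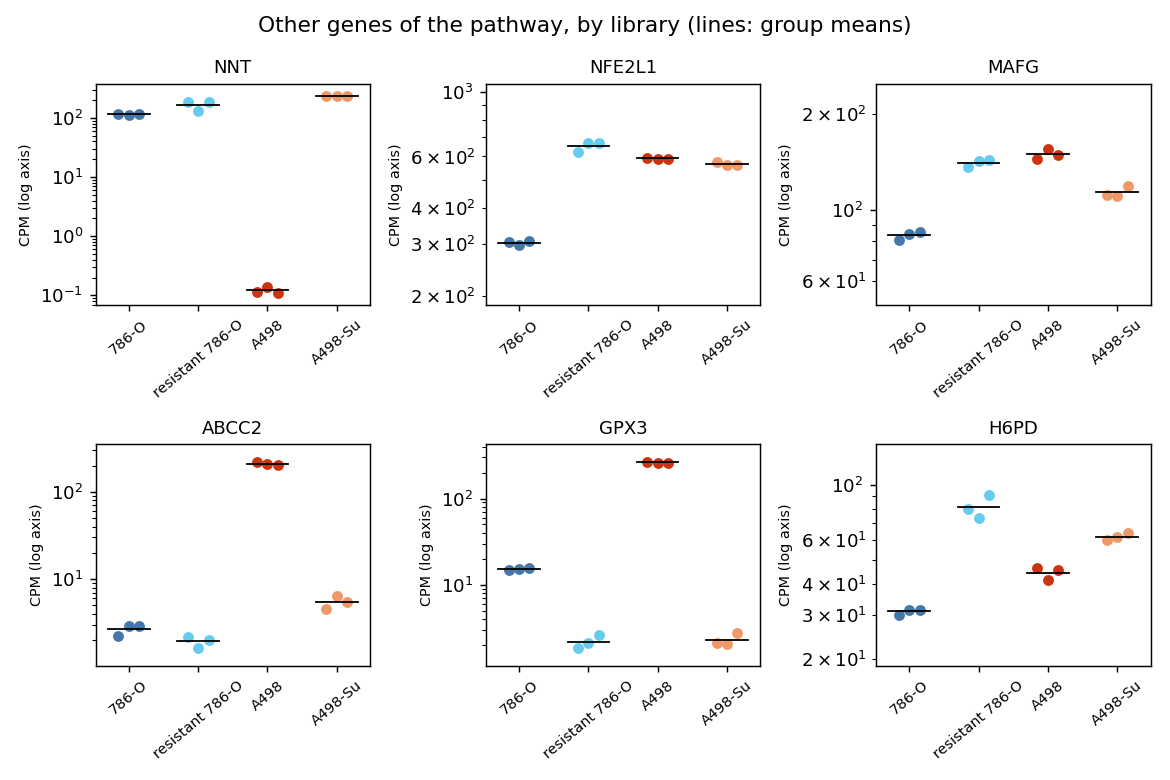
Level of 6 other genes of the pathway in CPM on a log axis, with 1 point per library, the 4 groups along the horizontal axis and a line at each group mean. NNT lies at 0.110 to 0.140 CPM in A498 and at 113 to 237 CPM elsewhere, ABCC2 and GPX3 are highest in A498, and NFE2L1, MAFG and H6PD are lowest in 786-O.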

How the data were processed

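The authors deposited raw counts of reads per gene, not normalized, as 1 table of 45478 gene rows for the 12 libraries. Per the paper's methods and the submitters' processing notes, the libraries were made with a stranded mRNA kit, reads were trimmed with Trimmomatic 0.36.6, aligned to GRCh38 with HISAT2 2.1.0 and counted over GENCODE exons with featureCounts 1.6.3. The paper's methods give the strand setting of that count as -s 1. How far it kept genes on opposite strands apart was not tested. Symbols were paired with 45283 rows, and positions come from GENCODE v44 (GRCh38).

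The 35 genes and the 5 lists of other pathway genes were chosen with earlier results of these data known. Counts were filtered with filterByExpr, scaled by TMM and fitted in 1 quasi-likelihood model of 4 group means with edgeR 4.0.16 (R 4.3.3), adjusting by Benjamini-Hochberg over 19929 genes at a threshold of 0.05. The fit gives no standard errors of its own. Those printed here were derived from it, as the absolute log2 fold change divided by the square root of the F statistic. They are approximate, above all for genes with few counts or very large differences. Named pathway genes are up to 3 per list and comparison with the largest absolute log2 fold change, an adjusted p under 0.05, 5 CPM or more in the higher group and no overlap between libraries. On simulated counts for resistant 786-O against 786-O, 196 of 200 genes changed 2-fold were recovered among 19274, with 14 false calls. In the simulation only these 200 genes changed and no replicate stood apart, whereas 68.5% of all genes were called in the data. It therefore does not give the rates of recovery or of false calls in the data. Alternatives were library-size scaling, DESeq2 1.42.0, no filter, at least 10 counts in every library, only the groups compared, a replicate block, thinned counts, a prior count of 2, a minimum log2 fold change of 1, and each library left out. No 2 replicates agreed within sampling noise. The smallest libraries hold 20042519 counts. The SDs given are over genes, within 1 group of 3 libraries. Standard errors and p-values rest on the dispersion that 1 fit takes from all 12 libraries. They therefore also carry the spread of groups not compared, such as replicate 2 of resistant 786-O for HMOX1 and OSGIN1.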

Additional observations from a re-analysis of the deposited data

Results flagged for a closer look

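The difference between the change of A498-Su over A498 and that of resistant 786-O over 786-O was tested for each gene with an interaction term in edgeR's quasi-likelihood model, and 32 of the 35 genes passed at an adjusted p under 0.05, against 68.3% of all genes. The differences below are on the log2 scale, rest on libraries labelled A498-Su that resemble 786-O, and were not weighed further.

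The aldo-keto and carbonyl reductases had the differences -9.29 (AKR1C1), -8.48 (AKR1C2), -6.81 (AKR1C3), -6.35 (AKR1B10), -1.35 (CBR1), -0.82 (AKR1B1) and -0.35 (CBR3). Among quinone, haem and conjugation genes they were -3.53 for HMOX1, -3.32 for OSGIN1, -2.85 for TRIM16L, -2.65 for BLVRB, -2.65 for EPHX1, -2.18 for SLC48A1, -2.09 for NQO1 and -1.85 for UGDH. Each of these 15 genes changed more downward under the A498-Su label, a call made for 34.4% of all genes.

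In the thioredoxin and glutathione systems the differences were -3.17 for SRXN1, -1.56 for GSR, -1.40 for GCLM, -1.31 for TXNRD1 and -0.37 for TXN. Among pentose phosphate and NADPH enzymes they were -1.39 for PGD, -1.30 for TALDO1, -0.63 for TKT and -0.48 for ME1. The regulators had -1.15 (SQSTM1), -0.40 (KEAP1) and -0.31 (NFE2L2). For peroxide removal the differences were -1.88 for CAT, -0.26 for GPX1 and -4.13 for GPX2, whose fitted value rests on 0 to 11 counts per library and is no measure of size. GPX4, at 0.63, and SOD1, at 0.30, lay in the other direction. Groups of 3 libraries were too small for a test of single outlying libraries.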

How the results depend on the processing

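Requiring an absolute log2 fold change over 1 left 6 of the 35 genes called in resistant 786-O against 786-O, 22 in A498-Su against A498, 21 in 786-O against A498, 3 in A498-Su against 786-O and 3 in A498-Su against resistant 786-O, where the counts without it were 26, 34, 33, 27 and 24. Of all genes, 22.0%, 30.8%, 31.9%, 20.0% and 7.30% met this requirement in the same order. Leaving out each library in turn gave 24 to 32, 34, 33 to 35, 25 to 29 and 21 to 25 called genes in the same order, and 31 to 34 for the difference between the changes. The highest count in resistant 786-O against 786-O came without resistant 786-O replicate 2. Replicate numbers did not pair the libraries (correlations of same-numbered deviations -0.25 to 0.25, and 3 of 12 libraries correlated best with their own number), and with the replicate number as a block the counts were 26, 34, 33, 27, 24 and 32, as without it. Library-size scaling moved the median of all genes from 0.033 to 0.18 in resistant 786-O against 786-O and from 0.0029 to 0.15 in A498-Su against 786-O. Under it KEAP1 in resistant 786-O reversed to 0.012 and TXNRD1 in A498-Su against 786-O to 0.11 (adjusted p = 0.024), and HMOX1 in resistant 786-O reversed to -0.16 without replicate 2 of that group and was 0.31 without replicate 1, the lowest and highest values with 1 library left out. The cause was not tested. Over single genes and alternatives, 4026 values kept their call, and their direction where they were called, 58 lost the call, 56 gained one and 3 reversed. A value called in neither fit counts among the 4026 even if its sign changed. The prior count of 2 moved no call. Low counts limit GPX2, SRXN1, AKR1C2, AKR1C1 and AKR1B10, which had under 100 counts in 12, 10, 9, 6 and 3 libraries. For SRXN1, the part played by the same-strand gene that shares 90.7% of its exon length was not tested.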
